A study of Homo sapiens with 12 samples.

Results

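This account follows 6 mature miRNAs, both strands of miR-33a, miR-33b, and miR-378a, through TGF-β-induced EMT in A549 cells, a human lung adenocarcinoma line of epithelial morphology. The strands were found by their names among the 2588 mature miRNAs of the count table, and all 6 of 6 passed the expression filter that left 491 miRNAs for testing. They were selected on values of these same libraries as well as on their names, among them the drop of miR-33b-3p at 96 h, so the levels and changes given for them are a description. Where a strand is said to be called, it passed the thresholds of the fit over all miRNAs, and neither such a call nor its stability is an independent test, so no p-value is printed for it. Small RNA was sequenced from cells before TGF-β (0 h) and after 24 and 96 h of TGF-β, giving 2 libraries for every one of these 3 time points. The labels of all libraries, those at 0 h included, carry the same entry for induced EMT, and no culture kept without TGF-β for 24 or 96 h was analysed here, so the effect of the cytokine and of time in culture cannot be told apart. Nothing in the labels says that both libraries of a time point came from separate cultures, so that p-values measure the spread between these libraries only, which may be technical. The sample titles also carry dates. Of the runs summed for a library, the first has the same date in all libraries, whereas the second has one date for both 24 h libraries and 0 h replicate 2 and another for both 96 h libraries and 0 h replicate 1, so that in the comparison of 96 h with 24 h time and second date cannot be told apart. In bulk RNA, fewer cells that hold a miRNA and less of it per cell cannot be told apart either.

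Each of the 3 genes lies inside a host gene with a known part in metabolism. MIR33A and MIR33B sit in introns of SREBF2 and SREBF1, which encode SREBP-2 and SREBP-1, the transcription factors that switch on cholesterol and fatty acid synthesis. Their 5p strand is the better known of the strands and represses the cholesterol exporter ABCA1 as well as genes of fatty acid oxidation. MIR378A lies in PPARGC1B, which encodes the coactivator PGC-1β, a driver of mitochondrial gene expression, and its strands are known as regulators of lipid and energy metabolism. A miRNA finds its targets mainly through its seed, bases 2 to 8 from the 5′ end, and of the pair of strands cut from a hairpin one is usually kept in the silencing complex.

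By the GENCODE annotation on GRCh37, MIR33A is at chr22:42296948-42297016 on the plus strand, in intron 16 of SREBF2-201, a transcript of 19 exons. MIR33B is at chr17:17717150-17717245 on the minus strand, also in intron 16 of a host transcript with 19 exons, SREBF1-201. The intron around MIR33A is 2471 bases long and that around MIR33B is 475 bases long. MIR378A is at chr5:149112388-149112453 on the plus strand, in intron 1 of PPARGC1B-201, an intron of 90012 bases in a transcript of 12 exons. Each gene was intronic in every protein-coding transcript that spanned it, 3 of 3 for SREBF2, 5 of 5 for SREBF1, and 3 of 3 for PPARGC1B. The hairpins, read 5′ to 3′ on the strand of the gene with both mature strands in capitals, show where the measured molecules come from. They are RefSeq's (GRCh38.p14) and identical to the GRCh37 sequence at these positions.
MIR33A: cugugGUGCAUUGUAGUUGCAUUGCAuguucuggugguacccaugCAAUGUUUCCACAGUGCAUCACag
MIR33B: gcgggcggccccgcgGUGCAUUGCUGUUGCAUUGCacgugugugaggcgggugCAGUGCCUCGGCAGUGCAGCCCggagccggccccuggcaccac
MIR378A: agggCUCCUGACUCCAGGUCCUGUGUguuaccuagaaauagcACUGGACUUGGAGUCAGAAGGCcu

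The mature strands are shown with the seed in capitals, because the seed sets which of the strands could share targets and because near-identical strands could share reads.
hsa-miR-33a-5p: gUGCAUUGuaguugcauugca
hsa-miR-33b-5p: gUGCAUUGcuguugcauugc
hsa-miR-33a-3p: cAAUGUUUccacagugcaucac
hsa-miR-33b-3p: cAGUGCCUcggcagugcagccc
hsa-miR-378a-3p: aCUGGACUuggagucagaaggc
hsa-miR-378a-5p: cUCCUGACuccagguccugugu
hsa-miR-378c: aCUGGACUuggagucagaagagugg
hsa-miR-378i: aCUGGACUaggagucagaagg
The 5p strands of miR-33a and miR-33b have the same first 8 bases and differ over their common 20 bases by U9C and A10U, counted from the 5′ end with the base of miR-33a-5p first. Of the 2370 mature sequences that could be read, those named in the count table were searched, and no other miRNA there had their seed. The 3p strands of the same hairpins differ at 7 of 22 positions and have different seeds. The seed of miR-33b-3p is shared with miR-515-3p and miR-519e-3p, both of which had 0 counts in every library. With 72.7% G and C, miR-33b-3p is also the most GC-rich of the 6 strands, against 42.9% for miR-33a-5p. The seed of miR-378a-3p occurs in miR-378b, miR-378c, miR-378f, miR-378h, miR-378i, and miR-422a, and miR-378c is identical to miR-378a-3p over its first 20 bases. None of the other sequences searched had the seed of miR-33a-3p or that of miR-378a-5p.

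Total counts on mature miRNAs ran from 2335185 to 5971197 per library, so that 1 read was worth 0.428 CPM in the smallest library and 0.167 CPM in the largest. A count of 0 allows up to 3 counts, or 0.681 to 1.12 TMM-normalized CPM, and neither this limit nor the Wilson intervals below cover more than counting error, because several PCR reads can stem from 1 molecule. All 491 tested miRNAs were fitted with edgeR's quasi-likelihood test, and a call of differential expression needed both a Benjamini-Hochberg adjusted p under 0.05 and a log2-fold change past 1 in either direction. The test called 17 miRNAs at 24 h against 0 h (6 higher, 11 lower), 127 at 96 h against 0 h (62 higher, 65 lower), and 29 at 96 h against 24 h (18 higher, 11 lower). Over all 491 the median log2-fold change against 0 h was -0.004 at 24 h and -0.10 at 96 h. Scaling by total counts moved these medians to -0.30 and -0.83 and the calls at 96 h against 0 h to 192 lower of 215, those at 24 h to 28 lower of 33, and those at 96 h against 24 h to 58 lower of 72. Single libraries also mattered: at 24 h against 0 h leaving out 0 h replicate 1 gave 36 calls, and leaving out 24 h replicate 1 or 2 gave 5 or 4, and at 96 h against 24 h leaving out 0 h replicate 1 or 2 gave 46 or 44, leaving out 24 h replicate 1 gave 9, and leaving out 96 h replicate 1 or 2 gave 11 or 16. Epithelial marker miRNAs, of which all 7 listed were detected in at least 1 library, summed to 126 CPM in both libraries at 0 h and to 246 and 254 CPM at 96 h. miR-200b-3p, of the family that restrains ZEB factors and the mesenchymal state, rose by 1.60 (SE 0.20, adjusted p = 0.000257) at 96 h on the log2 scale and was the only 1 called of the 6 tested epithelial markers, beside 12.6% of all tested miRNAs called higher there. Its relatives miR-200a-3p (0.81), miR-429 (0.20), miR-141-3p (-1.14), and miR-200c-3p (-0.03) were not called. Of the 6 tested epithelial markers 2 were below 0 at 96 h. edgeR and DESeq2 called 1 of these 6, and the call of miR-200b-3p was not made with limma. In every limma fit given here, which uses the authors' normalized values, the 96 h arm is 1 library that is assumed to vary like the others.

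The 6 strands differed widely in level. At 0 h, miR-378a-3p stood at 1623 ± 201 CPM (mean ± SD, n = 2 libraries, as for all levels here), 71.8-fold above miR-33b-3p, which followed with 22.6 ± 1.18 CPM. Next came miR-33b-5p with 14.5 ± 6.51, miR-378a-5p with 10.1 ± 1.23, miR-33a-5p with 5.30 ± 1.79, and miR-33a-3p with 5.07 ± 0.430 CPM. The libraries of miR-33b-5p and miR-378a-5p overlapped, as did those of both miR-33a strands, so that these neighbours in the order did not differ beyond their spread. At 24 h the order was the same, with overlap between both strands of miR-33b and between both strands of miR-33a. At 96 h, miR-378a-5p came second with 4.98 ± 1.29 CPM, above miR-33b-3p with 3.71 ± 0.118 CPM, and the 4 miR-33 strands overlapped from each to the next. miR-378a-3p then stood 214-fold above the next strand. Among all mature miRNAs it ranked 42nd to 58th by count in the 6 libraries, while the ranks of the other 5 strands lay between 245 and 646.

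**Figure D1:**
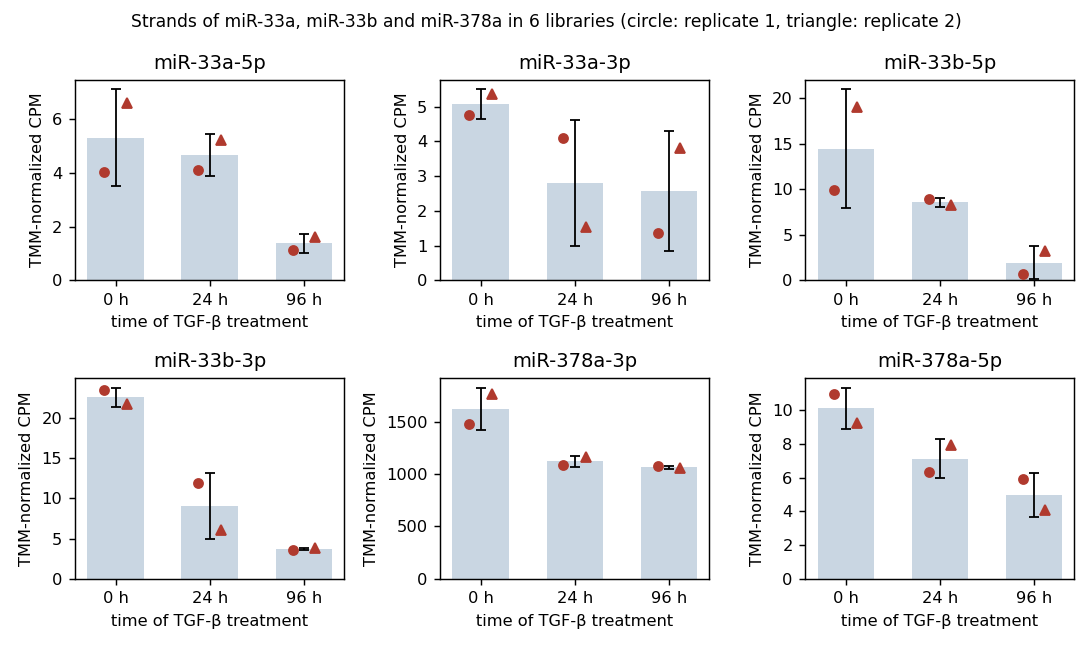
TMM-normalized CPM (vertical axis, own scale in each panel, starting at 0) of the 6 strands by time of TGF-β treatment. Bars and error bars are the mean and SD of 2 libraries, and points are the libraries. In every panel both libraries at 96 h lie below both libraries at 0 h.

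All 6 strands had lower mean levels at 96 h into EMT than at 0 h, and on the log2 scale those of miR-33b differed most. At 96 h against 0 h, 3 of the 6 strands were differentially expressed, miR-33b-5p, miR-33b-3p, and miR-33a-5p, and all 3 fell, which is read against 13.2% of all tested miRNAs that were called lower. The other 3, miR-33a-3p and both strands of miR-378a, had lower levels without passing both thresholds. The count depended on the tool and the scaling. DESeq2 called 2 of the 6, beside 43 of the 491 tested miRNAs that it called lower. edgeR on total counts called all 6, a scaling under which 192 of the 491 were called lower. limma, with 1 library at 96 h, had a median log2-fold change of -0.77 over all tested miRNAs. Its number of calls is left out here. Both libraries at 96 h lay below both at 0 h in 6 of the 6 strands, a pattern that 38.7% of all tested miRNAs had. The median log2-fold change was -1.48 over the 6 strands and -2.27 over the 4 miR-33 strands. The 130 tested miRNAs with a mean level between 3.49 and 11.8 CPM, the range of the 4 miR-33 strands, are a background of like level. They include these 4 strands and miR-378a-5p. Of the 130, 24 (18.5%) were called lower, the 3 called strands among them, and the median was -0.48. Against the 0 h library with the same dates alone, 0 h replicate 1, the log2-fold changes at 96 h were -2.36 for miR-33b-5p and -2.64 for miR-33b-3p, both called, and -1.53 for miR-33a-5p, -0.905 for miR-33a-3p, -0.47 for miR-378a-3p, and -1.11 for miR-378a-5p, which were not. Ordered from the lowest log2-fold change of the 491, miR-33b-5p was 4th, miR-33b-3p 9th, miR-33a-5p 26th, miR-33a-3p 91st, miR-378a-5p 94th, and miR-378a-3p 151st.

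**Figure D2:**
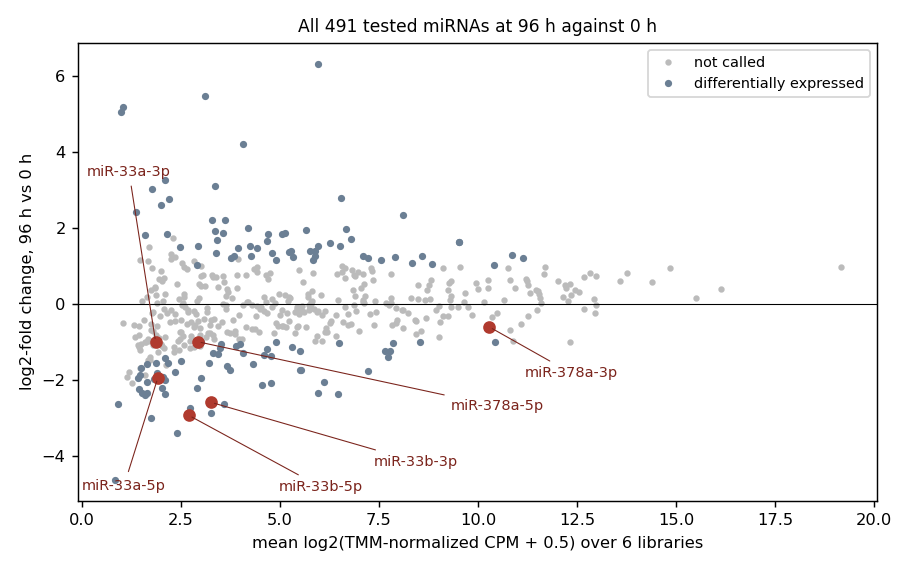
Log2-fold change at 96 h against 0 h (vertical axis) of the 491 tested miRNAs by their mean log2(TMM-normalized CPM + 0.5) over 6 libraries (horizontal axis). Both miR-33b strands lie at the lower edge of the cloud at -2.94 and -2.59, and miR-378a-3p lies far to the right at -0.61.

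miR-33b-5p, the 5p strand from the SREBF1 intron, had 27 and 64 reads before TGF-β, 24 and 27 after 24 h of it, and 3 and 12 after 96 h. In TMM-normalized CPM these were 9.89 and 19.1, then 8.93 and 8.26, then 0.681 and 3.25. Both 96 h libraries were far below the rest, and those at 24 h were just below 0 h replicate 1 and well below 0 h replicate 2. The fitted level fell by 2.94 (SE 0.57) on the log2 scale between 0 and 96 h, a 7.66-fold drop, and by 2.17 (SE 0.61) between 24 and 96 h, and both changes were called. Between 0 and 24 h the difference was -0.77 (SE 0.48) and was not called; omitting 0 h replicate 2 gave -0.19, and omitting 0 h replicate 1 gave -1.11. With 3 reads in 96 h replicate 1, its share of 0.502 CPM of the total count had a 95% Wilson interval of 0.171 to 1.48 CPM, and that of 2.58 CPM in 96 h replicate 2 one of 1.47 to 4.50 CPM. The call at 96 h against 0 h was kept whichever library was left out (-4.32 to -2.13), but that against 24 h was lost without 24 h replicate 1 (-2.11), 24 h replicate 2 (-2.14), or 96 h replicate 1 (-1.33), and its size was over 1.5 times larger without 96 h replicate 2 (-3.51). It was lost as well with limma (-3.03) and with sums over precursor entries (-2.16).

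miR-33b-3p, the other strand of the same hairpin, had 64 and 73 reads before TGF-β, 32 and 20 after 24 h of it, and 16 and 14 after 96 h. Its level was thus 23.4 and 21.8 CPM, then 11.9 and 6.12 CPM, then 3.63 and 3.80 CPM. These 3 time points did not overlap, and each was lower than the one before. The strand fell by 1.34 (SE 0.34) on the log2 scale at 24 h, the only one of the 6 that was called there, and by 2.59 (SE 0.37) or 6.04-fold at 96 h. From 24 to 96 h the difference was -1.25 (SE 0.40), which was not called over all libraries or without 24 h replicate 1 (-0.71), 96 h replicate 1 (-1.15), or 96 h replicate 2 (-1.20), but was called without 0 h replicate 1 (-1.24), 0 h replicate 2 (-1.25), or 24 h replicate 2 (-1.59). The call at 96 h against 0 h was kept whichever library was left out (-2.64 to -2.50), whereas that at 24 h was lost without 24 h replicate 1 (-1.84), 24 h replicate 2 (-0.97), 96 h replicate 1 (-1.38), or 96 h replicate 2 (-1.39). It was also lost with DESeq2 (-1.33), with limma on the authors' normalized values (-1.69), with sums over precursor entries (-1.35), and with only the libraries compared (-1.38).

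miR-33a-5p, the 5p strand from the SREBF2 intron, was much rarer and had 11 and 22 reads before TGF-β, 11 and 17 after 24 h of it, and 5 and 6 after 96 h. The levels of 4.03 and 6.56 CPM at 0 h and of 4.09 and 5.20 CPM at 24 h overlapped. At 96 h both libraries were lower, at 1.13 and 1.63 CPM. The fitted level fell by 1.95 (SE 0.55) on the log2 scale between 0 and 96 h, a 3.85-fold drop. The differences of -0.20 (SE 0.48; 0.22 when 0 h replicate 2 was left out) between 0 and 24 h and of -1.75 (SE 0.56) between 24 and 96 h were not called, although the latter was called without 0 h replicate 1 (-1.75). The call at 96 h was lost with DESeq2 (-1.89) and without 0 h replicate 2 (-1.53), 96 h replicate 1 (-1.67), or 96 h replicate 2 (-2.17).

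miR-33a-3p had 13 and 18 reads before TGF-β, 11 and 5 after 24 h of it, and 6 and 14 after 96 h. In CPM these were 4.76 and 5.37, then 4.09 and 1.53, then 1.36 and 3.80. The libraries at 24 and 96 h overlapped over nearly their whole range, and at this depth no difference between them was detectable. The log2-fold changes were -0.89 (SE 0.64) at 24 h and -1.01 (SE 0.62) at 96 h against 0 h, neither of them called. That at 96 h was called under total counts (-1.72) and with limma (-2.12). Single libraries moved both: the 24 h value became -1.67 when 24 h replicate 1 was left out and -0.36 when its partner was, and the 96 h value became -0.39 when 96 h replicate 1 was left out and -1.83 when its partner was.

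Because both 5p strands have the same seed, their reads were also added. How a read that matched both was counted is not given in the sources used here, and one counted under both would enter the sum 2 times. Together they came to 13.9 and 25.7 CPM in the libraries from before TGF-β, to 13.0 and 13.5 CPM after 24 h, and to 1.82 and 4.88 CPM after 96 h, with means of 19.8 ± 8.30, 13.2 ± 0.307, and 3.35 ± 2.17 CPM. Both sums at 24 h were below both at 0 h, one of them only by a little, and both at 96 h were lower still. Even at 0 h the sum was only 0.940% and 1.45% of the count of miR-378a-3p, and 0.169% and 0.463% at 96 h.

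miR-378a-3p, the dominant strand of its hairpin, had by far the most reads of the 6. Libraries from before TGF-β held 4043 and 5916 of its reads, those after 24 h held 2918 and 3790, and those after 96 h held 4743 and 3886. The corresponding levels were 1481 and 1765 CPM, then 1086 and 1159 CPM, then 1076 and 1054 CPM. Both later time points lay below 0 h without overlap, and they were close to each other. The log2-fold change was -0.53 (SE 0.14) at 24 h and -0.61 (SE 0.14) at 96 h against 0 h, a 1.52-fold difference at 96 h that did not reach the fold-change threshold. From 24 to 96 h the difference was -0.08 (SE 0.14). Its size depended on the scaling, with -0.51 under total counts (beside -0.83 up to 24 h) and -0.53 with limma, neither of them called, and its sign turned when 24 h replicate 2 (0.05) or 96 h replicate 2 (0.02) was left out.

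miR-378a-5p, the rarer strand, had 30 and 31 reads before TGF-β, 17 and 26 after 24 h of it, and 26 and 15 after 96 h. In CPM these were 11.0 and 9.25, then 6.33 and 7.95, then 5.90 and 4.07. The time points did not overlap, and the mean was lowest at 96 h. Against 0 h the log2-fold change was -0.49 (SE 0.37) at 24 h and -0.999 (SE 0.37) at 96 h, the last of which lay just inside the threshold of 1 and was not called. The 96 h difference was called under total counts (-1.73), under total counts without miR-21-5p (-1.35), and with limma (-1.54). That at 24 h was -0.78 under total counts, and -0.31 when 24 h replicate 1 was left out.

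**Figure D3:**
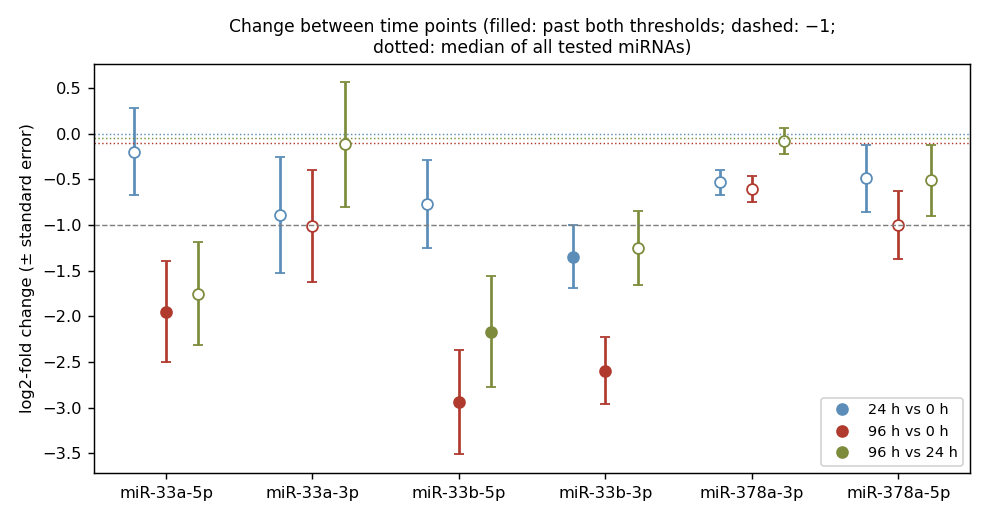
Log2-fold change with its standard error (vertical axis) of each strand in the 3 comparisons of time points. Filled points passed both thresholds, the dashed line is a log2-fold change of -1, and dotted lines are the medians of all tested miRNAs. The 18 estimates are all below 0, and those of miR-33b-5p, miR-33b-3p, and miR-33a-5p at 96 h against 0 h are -2.94, -2.59, and -1.95.

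Against 0 h replicate 2 alone, which has the dates of the 24 h libraries, miR-33b-3p was called at 24 h (-1.26) and the other 5 strands were not (-1.11 to -0.33). In the comparison of 24 h with 0 h, 1 of the 6 strands was called lower, against 2.24% of all tested miRNAs, and 5 of the 6 had both 24 h libraries below both at 0 h, against 28.5% of all. The median of the 6 strands was -0.65. In that of 96 h with 24 h, 1 of the 6 was again called lower, against 2.24% of all, 5 of the 6 did not overlap, against 31.6%, and the median was -0.88. Side by side, miR-378a-3p had -0.53 up to 24 h and -0.08 after it, and miR-33a-5p had -0.20 up to 24 h and -1.75 after it by TMM, whereas under total counts these were -0.83 and -0.51 for miR-378a-3p and -0.50 and -2.18 for miR-33a-5p. The difference between the strands was not tested. The 3 comparisons share libraries and are not independent of each other. A scaling shifts the log2-fold changes of all miRNAs by about the same amount, so values relative to the median of all tested miRNAs stay alike by construction: at 96 h against 0 h, over 4 scalings, they were -2.85 to -2.84 for miR-33b-5p, -2.50 to -2.49 for miR-33b-3p, -1.85 for miR-33a-5p, and -0.52 to -0.51 for miR-378a-3p. Without subtracting the median, miR-378a-3p had -0.61 by TMM and -1.35 by total counts, under which it was called.

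Counts of both strands of a hairpin within a library can be compared without any scaling between libraries. For miR-33a the strands were near parity at 0 h, with 45.8% and 55.0% of the reads on the 5p strand, and the mean log2 ratio of 5p over 3p was 0.03 ± 0.36. At 24 h it was 0.83 ± 1.18 and at 96 h -0.70 ± 0.65, and the 5p share ran from 30.0% (95% Wilson interval 14.5 to 51.9%) in 96 h replicate 2 to 77.3% (56.6 to 89.9%) in 24 h replicate 2. For miR-33b the 3p strand had more reads in 5 of the 6 libraries, with mean log2 ratios of -0.71 ± 0.74, 0.01 ± 0.59, and -1.23 ± 1.43 at 0, 24, and 96 h. For miR-33a both 96 h libraries (45.5% and 30.0%) had a lower 5p share than every earlier library, replicate 1 only just (45.8% in 0 h replicate 1). The libraries of one time point differed about as much as those of different time points, and no change of strand use was shown for either hairpin. With 2 libraries against 2, an exact permutation test cannot go below p = 0.333, and none was run on these ratios.

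The strands of miR-378a were far from parity. Its 5p strand made up 0.385% to 0.737% of the reads of both strands over the 6 libraries, and the mean log2 ratio of 5p over 3p was -7.30 ± 0.36 at 0 h, -7.27 ± 0.16 at 24 h, and -7.73 ± 0.34 at 96 h. These ratios overlapped between 0 and 24 h, and one 96 h library was the lowest of all. Between the paralogs, miR-33b-5p had more reads than miR-33a-5p in 5 of 6 libraries. The log2 ratio of miR-33a-5p over miR-33b-5p was -1.39 ± 0.19 at 0 h, -0.87 ± 0.31 at 24 h, and -0.15 ± 1.13 at 96 h, where 96 h replicate 1 had 5 reads against 3 and 96 h replicate 2 had 6 against 12.

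**Figure D4:**
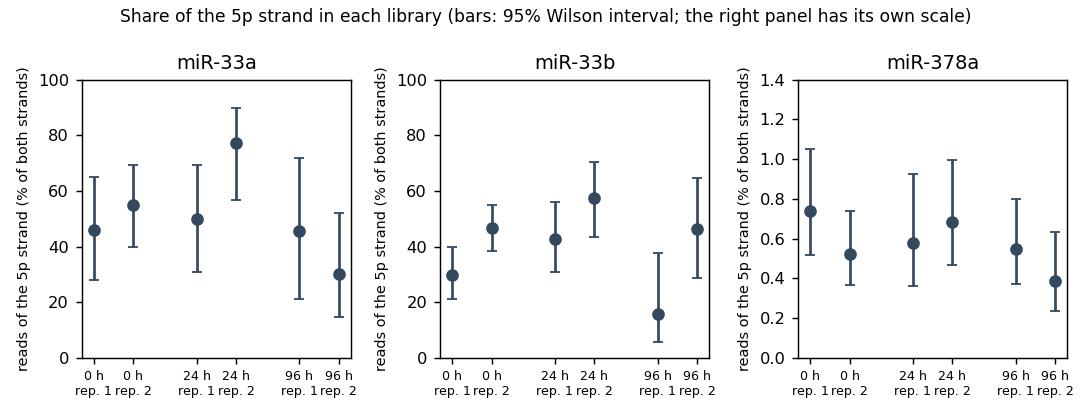
Reads of the 5p strand as a percent of both strands (vertical axis) in each library (horizontal axis) for the 3 hairpins, with 95% Wilson intervals. The miR-33a and miR-33b panels run from 0 to 100%, and the miR-378a panel, on its own scale, shows shares of 0.385% to 0.737%.

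The relatives of miR-378a-3p were compared because reads of such similar molecules are hard to keep apart. How the authors' counting treated a read that matched several of them is not given in the sources used here, so their counts are uncertain in this respect. Of the 6 miRNAs of the count table whose sequence could be read and holds its seed, miR-378i and miR-378c had a mean of at least 10 CPM. miR-378c, which differs from miR-378a-3p only by G21A and C22G and by its longer 3′ end, had 113 and 154 CPM before TGF-β, 94.2 and 98.5 after 24 h, and 87.4 and 94.4 after 96 h. Between 0 and 96 h its log2-fold change was -0.56 (SE 0.19, edgeR adjusted p = 0.0335), and like that of miR-378a-3p it did not reach the fold-change threshold. It was called under total counts (-1.30) and with limma (-1.41), and became -0.31 when 0 h replicate 2 was left out. miR-378i, which differs by U9A, had 291 and 331 CPM before TGF-β, 189 and 245 after 24 h, and 254 and 206 after 96 h, with -0.44 (SE 0.18, adjusted p = 0.0688) at 96 h. That difference, too, was called under total counts (-1.18) and with limma (-1.03), and became -0.25 when 96 h replicate 2 was left out. For both, the libraries at 24 h lay below those at 0 h and overlapped with those at 96 h. Over the 6 libraries miR-378c kept to 7.64% to 8.96% of the count of miR-378a-3p and miR-378i to 17.4% to 23.6%, and these 6 together to 27.0% to 32.7%. With the other 4 relatives, among them miR-378d and miR-378e, whose seed was not checked here, the sum was 30.9% to 36.4%. MIR378I lies at chr22:42319226-42319301 on the minus strand, 22210 bases from MIR33A and outside SREBF2.

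Further entries under the miR-378 name, looked at after their values had been seen, moved by more. miR-378d had 53.8 and 108 CPM before TGF-β, 34.2 and 33.3 after 24 h, and 32.9 and 35.8 after 96 h, and it fell by 1.27 (SE 0.30, adjusted p = 0.0323) at 24 h and by 1.24 (SE 0.29, adjusted p = 0.00689) at 96 h on the log2 scale. miR-378e fell by 1.55 (SE 0.41, adjusted p = 0.0118) at 96 h, from 17.9 ± 7.18 to 6.20 ± 2.35 CPM. Both were about 2-fold higher in 0 h replicate 2 than in 0 h replicate 1 (2.01 and 1.79 times). Without 0 h replicate 2 neither call at 96 h was made (-0.64 and -1.05), nor without 96 h replicate 1 (-1.16 and -1.17), and for miR-378d also not without 96 h replicate 2 (-1.27). The 24 h call of miR-378d was made with 1 of the 6 libraries left out, 0 h replicate 1, and not with any other, nor with only the libraries compared (-1.31) or with limma (-1.42). miR-378f, miR-378g, and miR-422a were tested and not called in any comparison, and miR-378b, miR-378h, and miR-378j had at most 2 counts in a library.

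**Figure D5:**
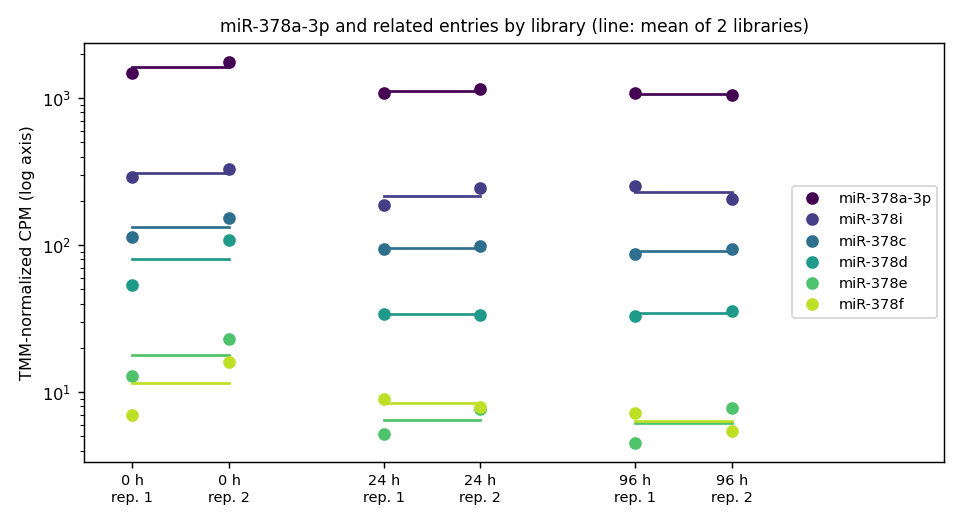
TMM-normalized CPM (log axis) of miR-378a-3p and 5 related entries in the 6 libraries, with the mean of each time point as a line. The order from miR-378a-3p over miR-378i and miR-378c to miR-378d is the same in every library, and all 4 have their highest mean at 0 h.

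Other miRNAs known for related roles served as a frame for miR-33. Of 16 listed repressors of ABCA1, 14 were tested, and at 96 h against 0 h 1 rose and 1 fell, with a median of 0.18 on the log2 scale beside -0.10 for all tested miRNAs. An unadjusted p under 0.05 was reached by 10 of the 14, which is not read as an excess, since the share of all tested miRNAs is not given. edgeR called 2 of the 14 and DESeq2 1, where they called 127 and 112 of all 491 tested miRNAs. No limma count is given at 96 h, where it had 1 library. The 4 most abundant of these repressors had log2-fold changes of 0.16 (miR-27b-3p), 0.70 (miR-26a-5p), 0.49 (miR-27a-3p), and 0.80 (miR-148a-3p) and were not called. The one that rose was miR-145-5p, a smooth muscle miRNA, from 1 and 0 counts before TGF-β to 29 and 25 after 96 h of it (adjusted p = 0.00108, a call not made with limma), where 12.6% of all tested miRNAs were called higher. The one that fell, where 13.2% of all were called lower, was miR-130b-3p, by 1.01 (SE 0.29, adjusted p = 0.0178). Its call was lost with DESeq2 (-0.94) or its size factors (-0.94), with no expression filter (-0.95), and with only the libraries compared (-0.97), and also without 0 h replicate 2 (-0.49), 24 h replicate 1 (-0.97), 24 h replicate 2 (-0.98), 96 h replicate 1 (-0.89), or 96 h replicate 2 (-1.07). At 24 h, edgeR, DESeq2, and limma each called 0 of the 14, where they called 17, 15, and 16 of all 491 tested miRNAs. There, 1 of the 14 had an unadjusted p under 0.05, for which the share of all is not given either. miR-145-5p rose again between 24 and 96 h (adjusted p = 0.0245, where 3.67% of all tested miRNAs were called higher), a call lost when any library of 24 or 96 h was left out (2.42 to 2.62) and with limma (2.06).

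Of 7 other miRNAs with known roles in lipid metabolism, 6 were tested, with a median of 0.28 at 96 h against 0 h. The abundant members miR-182-5p (0.52), miR-30c-5p (0.15), miR-183-5p (0.66), and miR-96-5p (0.40) were not called. miR-122-5p, the major miRNA of hepatocytes, fell from 15 and 9 counts before TGF-β to 4 and 1 after 96 h (adjusted p = 0.0290) and was the 1 called of the 6, against 13.2% of all tested miRNAs called lower. This call was not made with DESeq2 or limma, nor without 0 h replicate 1 (-2.02), 24 h replicate 1 (-2.61), 96 h replicate 1 (-3.68), or 96 h replicate 2 (-2.06).

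Among 22 other miRNAs that lie in introns of protein-coding genes, all 22 of which were tested, the median was 0.15 at 24 h and 0.21 at 96 h against 0 h. The most abundant, miR-103a-3p (0.26), miR-224-5p (0.33), miR-25-3p (-0.17), and miR-148b-3p (0.29), were not called at 96 h. miR-486-5p, which also lies in an intron and was called lower at 96 h (-2.06), was kept with the blood markers and is not among these 22. miR-455-3p rose by 1.53 (SE 0.22, adjusted p = 0.000475) at 96 h, where 12.6% of all tested miRNAs were called higher and 13.2% lower. This call was not made under total counts (0.80) or with limma (0.89). Of the 22, edgeR and DESeq2 called 1 each at 96 h, where DESeq2 called 112 of all 491 tested miRNAs. The limma count at 96 h is left out, since that arm was 1 library and the median over all tested miRNAs was -0.77. miR-671-5p fell by 1.06 (SE 0.25, adjusted p = 0.0330) at 24 h, where 1.22% of all tested miRNAs were called higher and 2.24% lower. That call was not made without 0 h replicate 2 (-0.80), 24 h replicate 1 (-1.12), 24 h replicate 2 (-1.02), 96 h replicate 1 (-1.10), or 96 h replicate 2 (-1.10), nor with only the libraries compared (-1.10) or with limma (-1.21). In these 3 lists the lowest log2-fold change at 96 h was that of miR-122-5p, -2.64 (SE 0.84), near those of both miR-33b strands.

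The miRNAs whose time course was most like that of each strand were found among the 321 or 322 other miRNAs whose mean reached 10 CPM, by the root-mean-square difference of log2 CPM over the 6 libraries after centring. For miR-33b-3p these were miR-486-5p (0.33), miR-3912-3p (0.36), and miR-7974 (0.37), which changed by -2.06, -2.07, and -2.34 at 96 h on the log2 scale. For miR-33b-5p they were miR-4483 (0.46), miR-486-3p (0.58), and miR-486-5p (0.60). For miR-33a-5p they were miR-138-5p (0.31), miR-362-5p (0.33), and again miR-486-5p (0.35). miR-33a-3p was most like miR-93-3p (0.36), miR-19a-3p (0.37), and miR-652-3p (0.37). miR-378a-3p was most like its seed mate miR-378c (0.08), followed by miR-423-3p (0.08) and miR-1307-3p (0.09), and miR-378a-5p like miR-149-5p (0.10), miR-425-5p (0.18), and miR-330-5p (0.19). Between the 6 strands themselves, both strands of miR-378a were closest (0.27). The 5p strands of miR-33a and miR-33b differed by 0.62, the strands of miR-33b by 0.73, and those of miR-33a by 0.75. Of the 6 strands, miR-378a-5p was nearest to miR-33a-5p (0.54) and miR-378a-3p nearest to miR-33a-3p (0.54). The part of counting error in these distances was not tested.

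The summed level of blood marker miRNAs was also lower at the later times. Of the 6 listed, 5 were detected in at least 1 library and miR-223-3p was at 0, and their sum ran from 135 to 138 CPM at 0 h, from 73.4 to 84.9 CPM at 24 h, and from 29.5 to 36.1 CPM at 96 h. Nearly all of it was miR-486-5p, which also lies in an intron, while miR-451a, the defining miRNA of red blood cells, had at most 3 counts in a library. The 5 fibroblast and smooth muscle miRNAs summed to between 5.37 and 8.79 CPM at 0 h and to between 418 and 452 CPM at 96 h, nearly all of it miR-143-3p, with miR-214-3p at 0. Striated muscle miRNAs stayed at or under 1.83 CPM in sum, and endothelial miR-126-3p ranged from 382 to 483 CPM over all libraries. The part of these shifts in the values of the miR-33 and miR-378a strands was not tested.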

How the data were processed

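Small RNA libraries of A549 cells were made by the study with an Illumina small RNA kit, and miRDeep2 was used to count reads per mature miRNA. What the authors deposited are raw counts, in which both runs of each of the 6 libraries (12 runs in all) are summed, and normalized values, a signal scaled per run to a common total. The submitters' processing notes name hg19 and FastQC, and the mapper settings are not given in the sources used here. Of the normalized values, 1 column repeats another in name and values and was not used, so 96 h replicate 2 has no normalized value here. Where a mature miRNA is listed under several precursors (170 of 2588, in 2822 entries), the entry with the highest total was used.

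Counts were normalized with TMM and tested with edgeR 4.0.16 in R 4.3.3 (filterByExpr with a minimum count of 10, quasi-likelihood F-test over all 6 libraries, Benjamini-Hochberg adjustment over 491 miRNAs). The SE is the absolute log2-fold change divided by the square root of F. Ratios within a library used a pseudocount of 0.5. The procedure was tested on simulated data, and the outcome of that test is not given here. Alternatives were DESeq2 1.42.0, limma 3.58.1 on log2(normalized value + 1), other scalings and filters, only the libraries compared, sums over precursors, the replicate number as a block, and leaving out each library. An exchanged block was added after seeing the data. Named besides the 6 strands were their seed mates with a mean of at least 10 CPM, up to 4 of the most abundant members of each list and those called, and the 3 miRNAs of the most similar time course. The members and lists were chosen with earlier results of these data known. Sequences are from RefSeq (GRCh38.p14) and positions from GENCODE on GRCh37; miR-378d and miR-378e were named without sequence. Figures were drawn in Python 3.11.15 with matplotlib 3.10.9. The qPCR and reporter experiments were not analysed here.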

Additional observations from a re-analysis of the deposited data

Results flagged for a closer look

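The changes of miR-33b-5p at 24 h and at 96 h, both taken against the same 0 h libraries, differed by -2.17 on the log2 scale (SE 0.61), which is the comparison of 96 h with 24 h and passed both thresholds. The call was lost with limma (-3.03), with sums over precursor entries (-2.16), and when 24 h replicate 1 (-2.11), 24 h replicate 2 (-2.14), or 96 h replicate 1 (-1.33) was left out. It rests on 24 and 27 counts at 24 h against 3 and 12 counts at 96 h, and miR-33b-5p had been picked with values of these libraries known, so it is no independent test. The date of the second run in the sample titles also separates all 24 h from all 96 h libraries, so that date and time cannot be told apart.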

How the results depend on the processing

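The calls of miR-33b-5p and miR-33b-3p at 96 h against 0 h were made under every alternative that gave a value (9 and 10 alternatives) and without each of the 6 libraries, which is no independent support, since the strands were picked on these values. With a mean of at least 10 CPM, miR-33b-3p and miR-378a-3p were the only strands tested. Under total counts the number of calls was 33 at 24 h, 215 at 96 h, and 72 between both, and the log2-fold changes became -1.72 for miR-33a-3p, -1.35 for miR-378a-3p, and -1.73 for miR-378a-5p at 96 h, and from 24 to 96 h -2.18 for miR-33a-5p and -1.69 for miR-33b-3p, all then past the thresholds. Total counts without miR-21-5p gave 26 calls at 24 h, and called miR-378a-5p at 96 h against 0 h (-1.35), and from 24 to 96 h miR-33b-3p (-1.42). limma, with 1 library at 96 h whose spread is assumed to be that of the others, called 10 miRNAs at 96 h against 24 h, called miR-33a-3p (-2.12), miR-378a-3p (-1.34), and miR-378a-5p (-1.54) at 96 h against 0 h, and lost miR-33b-3p at 24 h (-1.69) and miR-33b-5p at 96 h against 24 h (-3.03). DESeq2 lost miR-33b-3p at 24 h (-1.33) and miR-33a-5p at 96 h (-1.89). Without an expression filter 46 miRNAs were called at 96 h against 24 h, miR-33b-3p among them (-1.22), and with a mean of at least 10 CPM 17. Only the compared libraries gave 44 there, called miR-33a-5p (-1.77), and lost miR-33b-3p at 24 h (-1.38). Sums over precursors lost miR-33b-3p at 24 h (-1.35) and miR-33b-5p at 96 h against 24 h (-2.16). In the authors' normalized values the log2 ratio of miR-33a-5p over miR-33b-5p at 96 h, from 1 library, was 1.10. The cause of these differences was not tested.

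Leaving out each library gave 4 to 36 calls at 24 h, 93 to 142 at 96 h, and 9 to 46 between both. The log2-fold changes ranged from -0.45 to 0.22 for miR-33a-5p at 24 h (0.22 without 0 h replicate 2), from -1.84 to -0.97 for miR-33b-3p at 24 h, from -2.20 to -1.53 for miR-33a-5p at 96 h, and, at 96 h against 24 h, from -1.93 to -1.44 for miR-33a-5p, from -0.90 to 0.71 for miR-33a-3p (0.53 without 96 h replicate 1), from -3.51 to -1.33 for miR-33b-5p, from -1.59 to -0.71 for miR-33b-3p, and from -0.12 to 0.054 for miR-378a-3p (0.02 without 96 h replicate 2). The strand ratio of miR-33a at 0 h ranged from -0.23 to 0.28, that of miR-33b at 24 h from -0.41 to 0.42, and the paralog ratio at 96 h from -0.94 to 0.65. A lone library was then assumed to vary like the others.

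Replicate numbers were shared only as numbers: the differences between replicate 1 and replicate 2 correlated by -0.31 between 24 and 0 h, 0.33 between 96 and 0 h, and -0.20 between 96 and 24 h, over 491 miRNAs. With the replicate number as a block the counts were 20, 124, and 41 in place of 17, 127, and 29, and miR-33b-3p was called at 96 h against 24 h (-1.24); no other strand changed its call, while miR-130b-3p lost its call at 96 h (-0.98) and miR-378e was called at 24 h (-1.46). With the 24 h numbers exchanged, which was chosen after seeing the data, 27, 140, and 43 were called. Of 461 further values, for the other named miRNAs, 461 kept their direction and 89 changed their call. Depth limits the miR-33 strands, whose counts were as low as 3.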
